A study of Mus musculus with 8 samples.

Results

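Inhibitory transmission in the nervous system rests on GABA and glycine, and 7 genes of that machinery were followed here in RNA from mice with a deletion of Arf1. They were chosen by function and matched by symbol, 7 of the 47643 genes in the deposited count table: Gad1 and Gad2, which encode the enzymes that make GABA, Slc32a1 and Slc6a5, which encode transmitter transporters, Glra1 and Glrb, which encode glycine receptor subunits, and Gphn, which encodes the scaffold gephyrin. All 7 passed the filter on low counts. The study, whose design note names the function of Arf1 in neurons, sequenced 1 library per mouse from 8 C57BL/6 mice labelled as spinal cord, 4 heterozygous and 4 homozygous for the Arf1 deletion. Deletion was induced by intraperitoneal tamoxifen at 100 mg/kg, and the mice were 2 to 10 months old. The labels give neither the age nor the sex of single animals, do not name the Cre driver, and do not say whether the heterozygous mice received tamoxifen. The protein of Arf1 is a small GTPase by which coats are brought to Golgi membranes.

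Inhibitory neurons make GABA from glutamate with glutamate decarboxylase, in a larger form from Gad1 and a smaller, membrane-bound form from Gad2. The product of Slc32a1, VGAT, loads both GABA and glycine into synaptic vesicles. The product of Slc6a5, GlyT2, returns glycine to the terminal of glycinergic neurons and marks these cells in spinal cord and brainstem. Across the synapse glycine opens a chloride channel built of alpha subunits such as that of Glra1, the adult form in the cord, and the beta subunit of Glrb, which binds gephyrin and so holds the receptor at the synapse. Gephyrin also anchors GABA-A receptors, and in all tissues it completes the molybdenum cofactor.

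Both labels were checked against the levels before the comparisons. Levels within a gene are in CPM, counts over a library size scaled by TMM. Arf1 lay at 296 to 334 CPM in the heterozygous libraries and at 22.5 (replicate 2), 22.8 (replicate 3) and 39.9 CPM (replicate 4) in the homozygous ones. The library labelled homozygous replicate 1 had 307 CPM, inside the heterozygous range, so its Arf1 level goes against its label. Each result is therefore given with 8 libraries, and with 7, without the library labelled homozygous replicate 1. Depth was 29857210 to 37803594 expected counts per heterozygous library, and 26321522 to 37879426 per library of the other group. Homozygous replicate 3 mapped at 92.36% with 2.44% ribosomal bases, against at least 98.33% and at most 0.34% in the other libraries, and homozygous replicate 4 had an RNA integrity number of 8, against 9.

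The tissue label was set against genes of the forebrain and of the cord, in lists chosen after levels were seen. On the TPM scale, which corrects for transcript length and depth, 7 telencephalon genes summed to 1667 to 1938 in the heterozygous libraries and 1450 to 1931 in those labelled homozygous. Among them Slc17a7, the vesicular glutamate transporter typical of cortex, was at 448 to 666 TPM, against 15.6 to 41.1 TPM for Slc17a6, the form that prevails in cord. Hox genes of paralog groups 5 to 8, which mark cervical and thoracic levels, summed over 11 genes to 45.0 to 92.4 TPM and 32.1 to 81.4 TPM. Chat, of motor neurons, was at 1.41 to 4.16 TPM. Of inhibitory neuron factors, Dlx1 of telencephalic interneurons was at 15.9 to 27.8 TPM, while 14 factors of spinal interneurons summed to 7.09 to 15.6 TPM. Forebrain markers were thus high in all 8 libraries, which goes against the label, and the levels below cannot be read as those of spinal cord alone. How much of each gene came from which region was not measured.

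Upstream sequence is shown for 3 presynaptic genes of different transmitter use: Slc6a5 of glycine neurons, which varied most among the presynaptic genes, Slc32a1, shared by GABA and glycine neurons, and Gad2 of GABA neurons. RefSeq promoters (GRCm38.p6) were found for 6 of the 7 genes, and the bases printed lie upstream of the start of the gene in both RefSeq and GENCODE, plus strand, 5′ to 3′. Capitals mark E-boxes, matches to CANNTG, which reads the same on both strands.
Slc6a5, chr7:49910049-49910145: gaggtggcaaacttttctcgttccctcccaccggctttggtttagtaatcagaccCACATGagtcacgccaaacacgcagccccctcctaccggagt
Slc32a1, chr2:158610508-158610757: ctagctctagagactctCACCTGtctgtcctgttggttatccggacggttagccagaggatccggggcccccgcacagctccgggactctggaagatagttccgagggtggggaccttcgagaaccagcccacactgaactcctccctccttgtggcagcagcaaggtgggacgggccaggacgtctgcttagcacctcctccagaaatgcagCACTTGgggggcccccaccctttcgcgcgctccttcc
Gad2, chr2:22622077-22622204: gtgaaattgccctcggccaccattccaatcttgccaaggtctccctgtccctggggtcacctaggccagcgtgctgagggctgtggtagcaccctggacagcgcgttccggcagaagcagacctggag
The stretch of Slc6a5 held 1 E-box in 97 bases, that of Slc32a1 2 in 250 bases and that of Gad2 0 in 128 bases. Of 32851 promoters, 35.3%, 66.2% and 43.9% held at least 1 in a stretch of the same length and place, so a match is common. None of the 3 stretches held GGGCGG or TATAAA on either strand. GC content was 55.7% for Slc6a5, 62.4% for Slc32a1 and 62.5% for Gad2, against medians of 50.5%, 52.4% and 50.8% over all promoters at those lengths.

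Per transcript, GABA synthesis and the beta subunit stood above the glycinergic genes. Mean levels over the 8 libraries (± SD, n = 8) were 201 ± 27.1 TPM for Gad1, 143 ± 18.2 for Glrb, 51.9 ± 11.6 for Gad2, 42.7 ± 7.25 for Slc32a1, 35.6 ± 4.66 for Gphn, 12.7 ± 6.80 for Slc6a5 and 3.48 ± 3.25 for Glra1. Gad1 was above Glrb, Glrb above Gad2, and Gphn above Slc6a5 without overlap of the libraries. The ranges of Gad2 and Slc32a1 overlapped, as did those of Slc32a1 and Gphn and those of Slc6a5 and Glra1. Within each of the 8 libraries, Slc32a1 was above Gphn and Slc6a5 above Glra1. Gad2 was below Slc32a1 in heterozygous replicate 3 and above it in the rest. The beta subunit gene was thus far above the alpha subunit gene Glra1, and so it was above the alpha genes Glra2, at 5.02 to 9.66 TPM, and Glra3, at 0.87 to 3.87 TPM; Glra4 stayed at or below 0.26 TPM.

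No member passed the test between genotypes. edgeR's quasi-likelihood test, with Benjamini-Hochberg adjustment over all genes at a threshold of 0.05, called 0 of the 7 genes with 8 libraries, where it called 0% of 16511 genes, and 0 of 7 with 7 libraries, where it called 1.22% of 16560 (0.67% lower and 0.55% higher). DESeq2 and limma-voom also called 0 of the 7 in both comparisons. At an unadjusted p under 0.05 with 8 libraries, 1 of 7 was lower and 0 higher, against 8.9% and 7.87% of all genes. With 7 libraries 1 was lower and 0 higher, against 9.94% and 9.51%. The median log2 fold change of the 7 genes, homozygous minus heterozygous, was -0.06 with 8 and -0.09 with 7 libraries, against 0.0015 and 0.0027 over all genes tested. Of the 7, 4 had a negative value with 8 libraries and 5 with 7, against 49.6% and 49.5% of all genes. For no member were the homozygous libraries all below or all above the heterozygous ones, a pattern that 4.67% (below) and 4.61% (above) of all genes showed with 8 libraries and 8.78% and 9.76% with 7. In this bulk RNA, fewer cells of a type and less RNA per cell cannot be told apart.

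**Figure D1:**
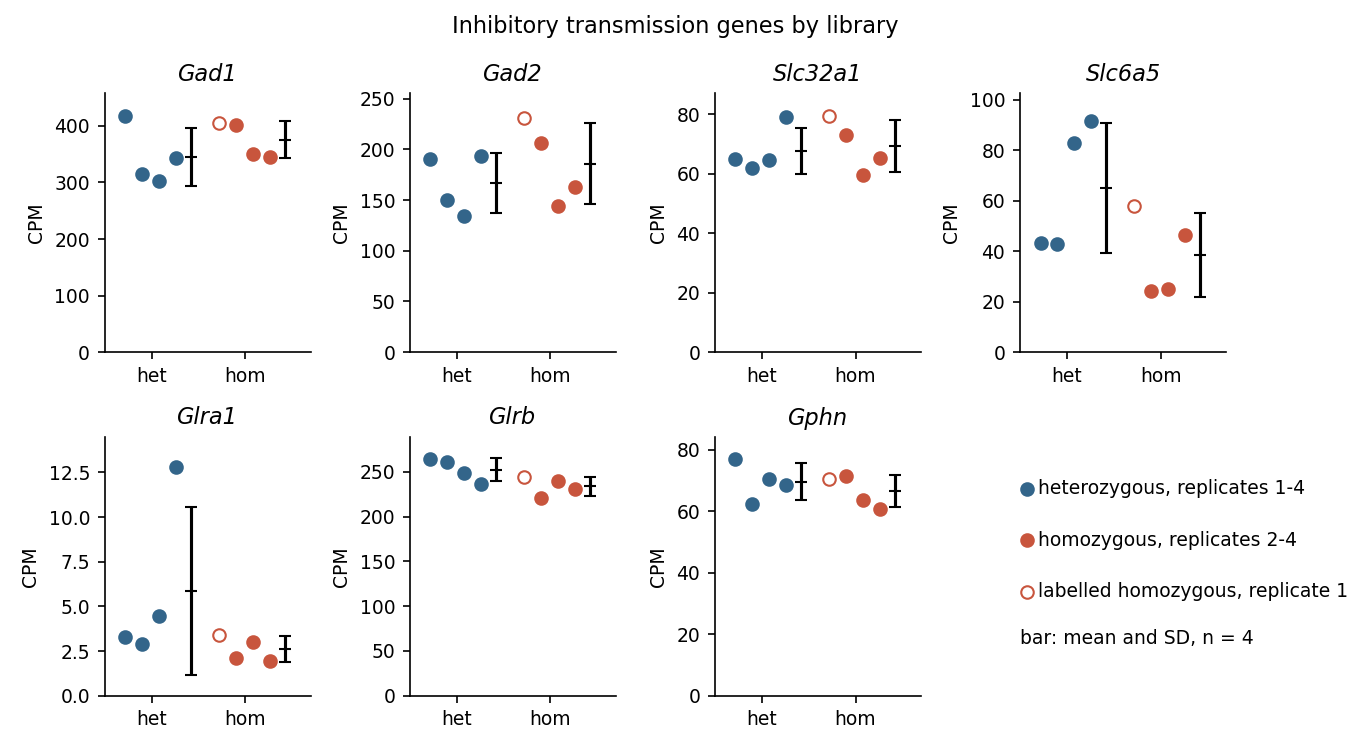
Level of each of the 7 genes in CPM (vertical axes, from 0) in the 4 heterozygous (het, blue) and 4 homozygous (hom, red) libraries, with replicate 1 to 4 from left to right. Open points are the library labelled homozygous replicate 1, and bars give mean and SD (n = 4). The groups overlap for every gene, and heterozygous replicate 4 stands alone for Glra1 at 12.8 CPM.

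Levels of the GABA-synthesising enzymes overlapped widely between the groups. Gad1 (ENSMUSG00000070880.10; chromosome 2, 70553072 to 70602014, plus strand, GRCm38) was at 417, 315, 302 and 344 CPM in heterozygous replicates 1 to 4 and at 406, 402, 350.4 and 345 CPM in the libraries labelled homozygous 1 to 4. The highest value was that of a heterozygous library, and all 4 homozygous values lay inside the heterozygous range. The log2 fold change was 0.13 (SE 0.10, edgeR adjusted p = 0.558) with 8 libraries and 0.09 (SE 0.11, adjusted p = 0.704) with 7. Gad2 (ENSMUSG00000026787.3; chromosome 2, 22622205 to 22693874, plus strand) was at 191, 149.9, 134 and 193 CPM and at 231, 206, 144 and 163 CPM. Its highest values were in the libraries labelled homozygous replicates 1 and 2, and the other homozygous values lay among the heterozygous ones. Its log2 fold change was 0.16 (SE 0.17, edgeR adjusted p = 0.665), and 0.03 (SE 0.16, adjusted p = 0.929) with 7 libraries. Signs this close to 0 were not stable: on the log2 TPM scale, whose median over all genes was -0.14 with 8 libraries and -0.17 with 7, the values were -0.04 and -0.12 for Gad1 and -0.03 and -0.18 for Gad2.

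Of the 2 presynaptic transporters, the one shared by GABA and glycine neurons varied little and the one of glycine neurons was spread widely. Slc32a1 (ENSMUSG00000037771.11; chromosome 2, 158610767 to 158615748, plus strand) was at 65.1, 61.9, 64.7 and 79.1 CPM in the heterozygous libraries and 79.6, 73.2, 59.7 and 65.2 CPM in those labelled homozygous. The groups covered nearly the same range. Its log2 fold change was 0.04 (SE 0.10, edgeR adjusted p = 0.880) with 8 libraries and -0.04 (SE 0.10, adjusted p = 0.874) with 7.

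Slc6a5 (ENSMUSG00000039728.15; chromosome 7, 49910146 to 49963856, plus strand) was at 43.2, 42.9, 82.7 and 91.3 CPM in heterozygous replicates 1 to 4. In the libraries labelled homozygous 1 to 4 it was at 57.8, 24.1, 24.9 and 46.5 CPM. Homozygous replicates 2 and 3 lay below all heterozygous libraries, while replicates 1 and 4 lay above heterozygous replicates 1 and 2, so the groups overlapped. Means were 65.0 ± 25.6 and 38.3 ± 16.6 CPM (SD, n = 4 and 4). The fitted homozygous level was 59.2% of the heterozygous one, a log2 fold change of -0.76 (SE 0.40, edgeR adjusted p = 0.381). With 7 libraries it was 49.0%, or -1.03 (SE 0.40, edgeR adjusted p = 0.238; unadjusted p = 0.0427). Over the alternatives tried the adjusted p ranged from 0.143 to 0.615 with 8 libraries and from 0.0535 to 0.506 with 7.

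The glycine receptor alpha subunit gene differed most, through a single library. Glra1 (ENSMUSG00000000263.15; chromosome 11, 55514238 to 55608198, minus strand) was at 3.29, 2.89, 4.47 and 12.8 CPM in the heterozygous libraries and at 3.40, 2.08, 3.02 and 1.96 CPM in those labelled homozygous, from 56 to 490 expected counts. Heterozygous replicate 4 stood far above the rest, and the other 7 libraries lay between 1.96 and 4.47 CPM. The log2 fold change was -1.17 (SE 0.49, edgeR adjusted p = 0.282; unadjusted p = 0.0441) with 8 libraries and -1.33 (SE 0.57, adjusted p = 0.262) with 7. Without heterozygous replicate 4 it was -0.44 (SE 0.24, edgeR adjusted p = 0.434) and -0.60 (SE 0.24, adjusted p = 0.258). That library had the highest median ratio of 5′ to 3′ coverage, 0.5046 against 0.413 to 0.4407 in the others, and so the most even coverage. It also had the highest summed Hox level, 92.4 TPM. The part of the coverage difference in the Glra1 value was not tested. Glra1 lies on the chromosome of Arf1, 3.603 Mb from it.

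The beta subunit and the scaffold varied least. Glrb (ENSMUSG00000028020.16; chromosome 3, 80843599 to 80913660, minus strand) was at 264, 261, 249 and 236 CPM and at 245, 221, 239 and 231 CPM. The 3 highest values were heterozygous, and heterozygous replicate 4 fell among the homozygous ones. Its log2 fold change was -0.11 (SE 0.06, edgeR adjusted p = 0.374) with 8 libraries and -0.13 (SE 0.07, adjusted p = 0.307) with 7. On the log2 TPM scale with 7 libraries it was -0.36 and passed limma's test (adjusted p = 0.0205), beside the median of -0.17 over all genes there; its adjusted p over the other alternatives reached 0.612. Gphn (ENSMUSG00000047454.11; chromosome 12, 78226379 to 78684772, plus strand) was at 77.1, 62.4, 70.6 and 68.5 CPM and at 70.6, 71.4, 63.8 and 60.6 CPM. The groups overlapped over most of their range, with log2 fold changes of -0.06 (SE 0.08, edgeR adjusted p = 0.701) and -0.09 (SE 0.09, adjusted p = 0.575).

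**Figure D2:**
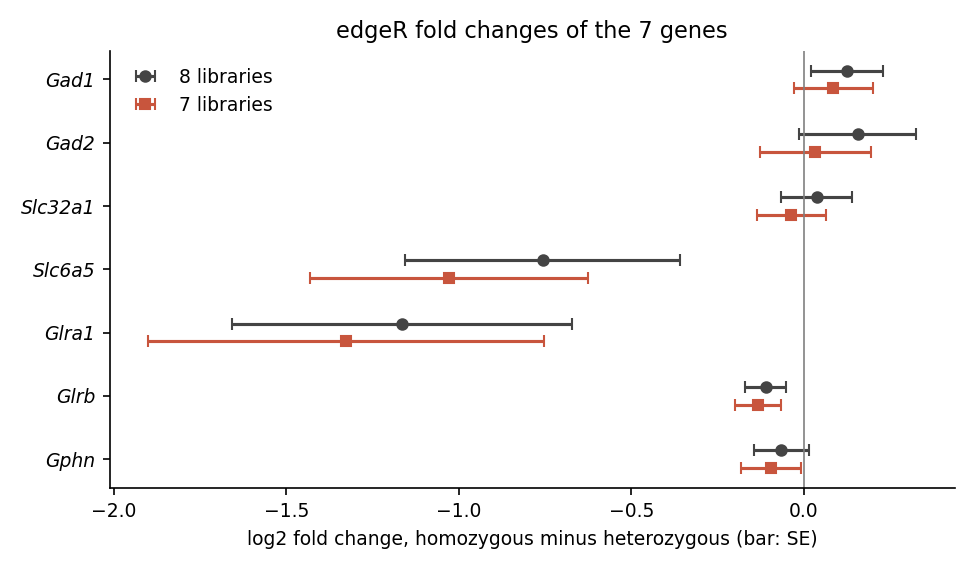
Log2 fold change of each gene, homozygous minus heterozygous (horizontal axis), from edgeR with 8 libraries (black circles) and 7 libraries (red squares); bars are standard errors. Slc6a5 and Glra1 lie at -0.76 and -1.17 with 8 libraries with wide bars, and the other 5 genes lie between -0.11 and 0.16.

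Ratios within a library, which do not depend on scaling between libraries, were compared for 5 gene pairs in TPM by two-sided exact permutation tests. The smallest p possible is 0.0286 with 8 libraries and 0.0571 with 7, so the latter could not reach 0.05. With 8 libraries a lone ratio at the smallest p could not pass after adjustment over the 5 ratios. Several ratios would have had to lie there together. The ratio of Slc6a5 to Slc32a1, of the glycine marker to the vesicle transporter shared with GABA, was 0.255, 0.267, 0.489 and 0.442 in the heterozygous libraries and 0.278, 0.125, 0.160 and 0.274 in those labelled homozygous. Replicates 2 and 3 of the homozygous group lay below all heterozygous libraries and replicates 1 and 4 just above the 2 lowest of them. The mean log2 difference was -0.82 (exact permutation p = 0.171, adjusted 0.429 over the 5 ratios), and -0.98 with 7 libraries (exact p = 0.171, adjusted 0.429). Glra1 to Glrb, of alpha to beta subunit, was at 0.0146 to 0.0713 and at 0.0122 to 0.0184, with a log2 difference of -0.78 (exact permutation p = 0.171, adjusted 0.429). Without heterozygous replicate 4 that difference was -0.29. Gad1 to Gad2, of the 2 enzymes, was at 3.38 to 4.32 and 3.36 to 4.69, with a log2 difference of -0.01 (exact permutation p = 0.971). Glrb to Gphn, of receptor to scaffold, was at 3.87 to 4.70 and 3.43 to 4.25 (-0.06, exact permutation p = 0.543). Slc32a1 to Slc17a6, of inhibitory to excitatory vesicle transporter, was at 1.24 to 2.03 and 1.48 to 2.31 (0.23, exact permutation p = 0.314). None of the 5 passed, an outcome that says little about the ratios because the tests had so little room to pass.

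The level of Slc6a5 was set beside that of the cord Hox genes, library by library. The 2 libraries lowest in summed Hox5 to Hox8 level, homozygous replicates 2 and 3 at 33.5 and 32.1 TPM, were also the 2 lowest in Slc6a5, at 5.17 and 5.11 TPM, and heterozygous replicate 4 was highest in both, at 92.4 and 24.6 TPM. Homozygous replicate 4 did not follow, with 81.4 TPM of Hox genes and 10.7 TPM of Slc6a5. Slc6a5 per unit of summed Hox TPM was 0.193, 0.237, 0.268 and 0.266 in the heterozygous libraries and 0.154, 0.159 and 0.132 in homozygous replicates 2 to 4, all below the heterozygous range. The library labelled homozygous replicate 1 had 0.217, inside that range. The share of all genes that separate per Hox TPM was not computed. Without that division, 8.78% of all genes had every homozygous library below every heterozygous one with 7 libraries. Glra1 per Hox TPM overlapped, at 0.0482 to 0.123 and 0.0204 to 0.0635. The separation of Slc6a5 depended on the Hox list: per summed TPM of another list, 9 Hox genes of groups 4 to 10, Slc6a5 was at 0.292 to 0.582 in heterozygous libraries and at 0.308 to 0.521 in those labelled homozygous, which overlapped. In a fit with the mean log2-CPM of 10 Hox5 to Hox8 genes as a covariate, chosen after seeing the data, the log2 fold change of Slc6a5 was -0.48 (SE 0.20, edgeR adjusted p = 0.332) with 8 libraries and -0.67 (SE 0.19, adjusted p = 0.150) with 7. For Glra1 the same fits gave -0.77 (SE 0.54) and -0.82 (SE 0.71). Gad1 per unit of Hox TPM ran from 2.32 to 4.36 in heterozygous libraries and from 2.31 to 6.02 in those labelled homozygous, and the plot of levels against Hox shows no common course for it. The Hox list was chosen with these values known, and the fit cannot separate cord content from other differences that move with it.

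**Figure D3:**
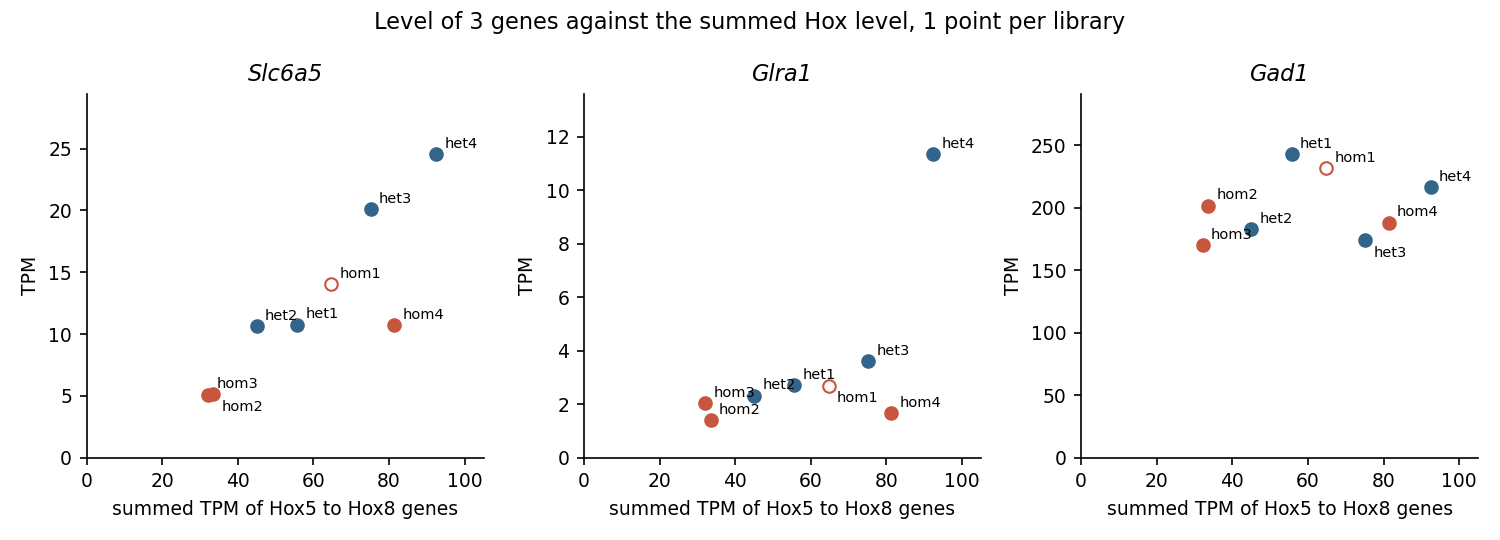
TPM of Slc6a5, Glra1 and Gad1 (vertical axes, from 0) against the summed TPM of 11 Hox5 to Hox8 genes (horizontal axes), 1 labelled point per library, blue heterozygous (het), red homozygous (hom), open for the library labelled homozygous replicate 1. Slc6a5 is lowest in hom2 and hom3, at 5.17 and 5.11 TPM, where the Hox sum is 33.5 and 32.1 TPM.

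Markers of other cells also moved with the groups. Schwann cells myelinate nerve roots. Their 6 genes summed to 364 to 867 TPM in the heterozygous and 242 to 363 TPM in the libraries labelled homozygous. In both comparisons 4 of 6 had every homozygous library below every heterozygous one, against 4.67% (8 libraries) and 8.78% (7 libraries) of all genes. The other 2 had positive values with 8 libraries. Egr2 (log2 fold change 0.33, SE 0.10) had every homozygous library above, against 4.61% of all genes. Mal (0.16, SE 0.15) is also expressed by oligodendrocytes. Of the 6, edgeR called 0 with 8 libraries and 1 with 7. It was Dhh (log2 fold change -3.51, SE 0.55, edgeR adjusted p = 0.0256), at 2 to 77 expected counts. Without Mal the sums were 168 to 621 and 49.4 to 84.9 TPM. Genes of meningeal fibroblasts summed over 6 genes to 32.0 to 77.2 and 16.1 to 27.7 TPM, with 4 of 6 wholly below in both comparisons. Of these 6, edgeR called 0 with 8 libraries and 1 with 7, Col3a1 (log2 fold change -2.33, SE 0.43, edgeR adjusted p = 0.04975). Of 6 microglia genes 0 passed with 8 libraries, and with 7 Cd68, of phagocytic lysosomes, rose by 0.83 on the log2 scale (SE 0.15, edgeR adjusted p = 0.0406) and Tmem119, of resident microglia, fell by 0.56 (SE 0.11, adjusted p = 0.0462). With 1 more library left out, Cd68 lost its call in 5 of 7 fits, all but those without heterozygous replicate 1 or homozygous replicate 4, and Tmem119 in 6, all but that without homozygous replicate 4 (edgeR adjusted p up to 0.131 and 0.159). P2ry12, a purinergic receptor of these cells, was at -0.71 (SE 0.16, edgeR adjusted p = 0.0702). The part of these differences in the values of Slc6a5 and Glra1 was not tested. Among neuron genes, Rbfox3, of nearly all neurons, had a log2 fold change of 0.02 (SE 0.10) with 8 libraries and 0.04 (SE 0.12) with 7. It was 1 of 12 pan-neuronal genes, of which edgeR called 0 in either comparison. Of the 12, 7 had negative values with 8 libraries and 8 with 7, against 49.6% and 49.5% of all genes. Tubb3 of that list was at -0.27 (SE 0.09) and -0.33 (SE 0.09, edgeR adjusted p = 0.0918). With 7 libraries its homozygous values were all below, as for 8.78% of all genes. Slc17a6, of excitatory cord neurons, was at -0.22 (SE 0.25) and -0.32 (SE 0.27), while Slc17a7 and Slc17a8 had positive values in both. Chat was at -0.28 (SE 0.27) and -0.51 (SE 0.26). Rbfox3, Slc17a6 and Chat did not pass edgeR's test. Nefm, an axonal neurofilament gene, was at -0.67 (SE 0.20, edgeR adjusted p = 0.165) with 8 libraries and fell by 0.89 (SE 0.13, adjusted p = 0.0223) with 7. With 1 more library left out, Nefm lost its call in 5 of 7 fits (edgeR adjusted p up to 0.101). Those without heterozygous replicate 1 or homozygous replicate 4 kept it. The other neurofilament genes also passed only with 7 libraries. Nefl was at -0.43 (SE 0.10, edgeR adjusted p = 0.1305) and -0.53 (SE 0.08, adjusted p = 0.0223). Nefh was at -0.67 (SE 0.24, edgeR adjusted p = 0.227) and -0.93 (SE 0.17, adjusted p = 0.0475). Whether the calls of Dhh, Col3a1, Nefl and Nefh held with 1 more library left out was not examined.

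The authors' deposited table of 185 genes holds 2 of the 7. It gives Slc6a5 a log2 fold change of -1.25 with a false discovery rate of 0.00972, and Glra1 one of -1.61 with 0.0366. The authors' deposited tables of levels for these genes cover 6 libraries, without heterozygous replicate 1 and the library labelled homozygous replicate 1. On those 6 libraries edgeR's likelihood ratio test, added after seeing the data, gave -1.18 for Slc6a5 (adjusted p = 0.0628) and -1.52 for Glra1 (adjusted p = 0.106), and the quasi-likelihood test gave adjusted p = 0.225 and 0.247. Both genes had the direction of the authors' deposited table in these fits, without passing. The fits used the libraries of the authors' own tables of levels, so the shared direction is not independent of them. Of other pathway genes, the likelihood ratio test passed Gabrr2 (1.51, adjusted p = 0.00408) and Pax2 (-1.23, adjusted p = 0.00783), which the authors' deposited table also holds. It also passed Slc6a11 and Slc6a9, which that table does not hold. The share of all genes that the likelihood ratio test passed on these 6 libraries is not given here, so these passes do not set the pathway apart.

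The rest of the pathway was followed in 9 lists of 75 genes, 64 of them tested. edgeR called 0 of the 64 in either comparison. At an unadjusted p under 0.05 there were 2 higher and 7 lower with 8 libraries (3.12% and 10.9% of the 64, against 7.87% and 8.9% of all genes) and 5 higher and 6 lower with 7 (7.81% and 9.38%, against 9.51% and 9.94%). DESeq2 called 3 with 8 libraries (4.69%, against 4.11% of all genes) and 4 with 7 (6.25%, against 6.54%), and limma-voom 0 in both. The median log2 fold change was 0.0074 and -0.003. Symbols of Insyn1 and Insyn2a found no match.

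**Figure D4:**
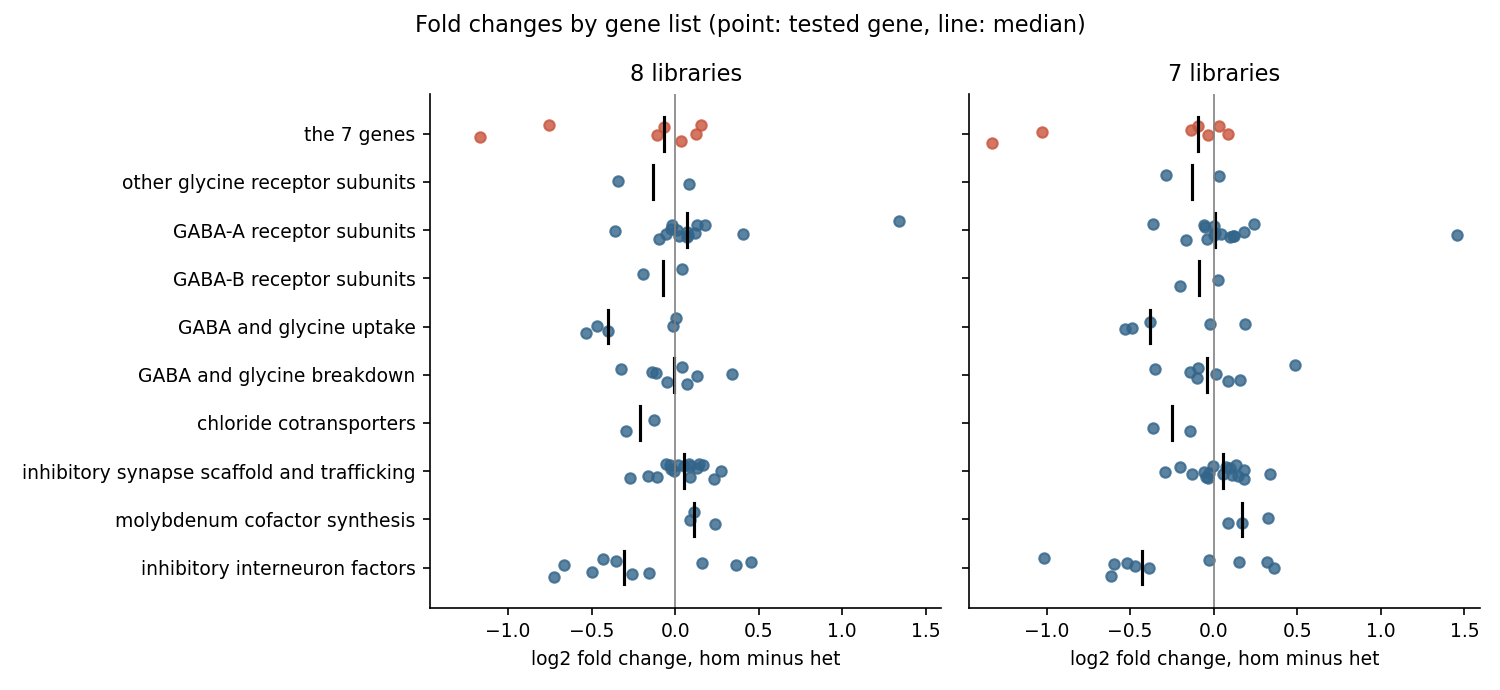
Log2 fold change, homozygous minus heterozygous (horizontal axes), of every tested gene (points) of the 7 genes (red) and of 9 other lists of inhibitory transmission (blue), with 8 libraries (left) and 7 (right); black lines are list medians. Most points lie near 0, Gabrr2 lies at 1.34 and 1.45, and the uptake list has medians of -0.40 and -0.38.

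Among receptors, 15 of 19 GABA-A subunit genes were tested, with a median of 0.07 (8 libraries) and 0.01 (7 libraries) on the log2 scale. The gene with the smallest p of the pathway was Gabrr2, which encodes a rho subunit of GABA-A receptors. It was at 1.15, 0.698, 0.767 and 1.47 CPM in the heterozygous and 1.98, 3.76, 2.82 and 1.89 CPM in the homozygous libraries. All 4 homozygous values were above all heterozygous ones, as 4.61% of all genes showed. The log2 fold change was 1.34 (SE 0.30, edgeR adjusted p = 0.121) with 8 libraries and 1.45 (SE 0.31, adjusted p = 0.0563) with 7; the adjusted p over its alternatives ran from 0.00427 to 0.286 and from 0.00219 to 0.199. The authors' deposited table gives Gabrr2 a log2 fold change of 1.43 with a false discovery rate of 0.00899. Gabrb2, a beta subunit, was at -0.36 (SE 0.15) and -0.36 (SE 0.17). The other glycine receptor alpha genes Glra2, at 0.08 (SE 0.17) and 0.03 (SE 0.19), and Glra3, at -0.34 (SE 0.29) and -0.29 (SE 0.33), did not pass either. The GABA-B subunit genes Gabbr1 and Gabbr2 had a median of -0.08 and -0.09.

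Carriers that clear GABA and glycine from the synapse were not called by edgeR's quasi-likelihood test with 8 or 7 libraries. The 5 carriers had a median of -0.40 (log2 fold change, 8 libraries) and -0.38 (7 libraries), with 4 of 5 values negative and 0 called in each. Slc6a9, which encodes GlyT1, the glial glycine carrier, was at 54.1, 67.7, 81.3 and 77.2 CPM and at 52.6, 42.3, 46.7 and 60.9 CPM. Homozygous replicate 4 lay above heterozygous replicate 1, so the groups overlapped. The fitted difference was -0.47 (SE 0.14, edgeR adjusted p = 0.175) and -0.49 (SE 0.17, adjusted p = 0.164). DESeq2 called Slc6a9 with 8 (adjusted p = 0.0372) and 7 libraries (adjusted p = 0.0385), limma on log2 TPM with 7 (adjusted p = 0.0319) and the likelihood ratio test on the authors' 6 libraries (adjusted p = 0.00232). Slc6a11, which encodes the astrocytic GABA carrier GAT3, was at 186, 221, 287 and 271 CPM and at 230.1, 164, 149 and 187 CPM. Heterozygous replicates 1 and 2 lay inside the homozygous range. In the fits Slc6a11 was at -0.40 (SE 0.17, edgeR adjusted p = 0.270) and -0.53 (SE 0.15, adjusted p = 0.114). With 7 libraries DESeq2 (adjusted p = 0.00901), limma on log2 TPM (adjusted p = 0.0323) and the likelihood ratio test (adjusted p = 0.028) called Slc6a11. Without heterozygous replicate 1 as well, the quasi-likelihood test (adjusted p = 0.041) and the likelihood ratio test (adjusted p = 1.61e-04) called it. With 8 libraries no alternative called it (adjusted p at least 0.114). On log2 TPM with 7 libraries the median over all genes was -0.17, beside values of -0.7465 for Slc6a9 and -0.725 for Slc6a11. Of 6 astrocyte markers 0 passed in either comparison, and they went both ways: Gfap had log2 fold changes of 0.92 (SE 0.43) and 1.17 (SE 0.31), and Slc1a2, the main glutamate carrier of astrocytes, -0.27 (SE 0.11) and -0.33 (SE 0.12). Summed without Gfap they were at 745 to 927 TPM in the heterozygous libraries and at 526 to 726 TPM in those labelled homozygous, without overlap, on a scale whose median over all genes was also below 0. With Gfap, at 865 TPM in homozygous replicate 4, the sums overlapped, at 966 to 1239 TPM and 848 to 1462 TPM. The part of these markers in the values of Slc6a9 and Slc6a11 was not tested.

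The chloride cotransporters set the direction of the current through both receptors. Slc12a5, the neuronal exporter KCC2, had a log2 fold change of -0.13 (SE 0.06) and -0.14 (SE 0.07). Every homozygous library lay below every heterozygous one in both comparisons, as 4.67% of all genes showed with 8 libraries and 8.78% with 7. Slc12a2, the importer NKCC1, was at -0.29 (SE 0.12) and -0.36 (SE 0.13). Neither passed edgeR's test (adjusted p = 0.322 and 0.311 for Slc12a5, 0.271 and 0.172 for Slc12a2).

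Of 19 scaffold and trafficking genes 17 were tested, with medians of 0.05 and 0.06. Nlgn2, the adhesion protein of inhibitory synapses, was at -0.03 (SE 0.06) and -0.0049 (SE 0.07). Ptprd, an adhesion phosphatase, was at 200.4, 205, 179 and 204 CPM and at 170, 148, 162 and 174 CPM, with the homozygous group wholly below. That pattern was shown by 4.67% of all genes with 8 libraries and by 8.78% with 7. The fits gave -0.27 (SE 0.07, edgeR adjusted p = 0.136) and -0.29 (SE 0.08, adjusted p = 0.0958). DESeq2 called Ptprd with 8 (adjusted p = 0.0155) and 7 libraries (adjusted p = 0.015), and limma on log2 TPM with 7 (adjusted p = 0.0201). On log2 TPM with 7 libraries Ptprd was at -0.63, beside a median of -0.17 over all genes. The 3 genes that make the precursor of the molybdenum cofactor, which gephyrin completes, had medians of 0.11 and 0.17 and did not pass. The 8 breakdown genes had medians of -0.0046 and -0.04.

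Factors that specify spinal inhibitory interneurons, 10 of 14 tested, had a median of -0.30 with 8 libraries and -0.43 with 7, with 7 of 10 values negative in each. Pax2, expressed in dorsal inhibitory neurons, was at 1.02, 1.43, 2.77 and 2.64 CPM in the heterozygous and at 1.78, 0.930, 1.01 and 0.979 CPM in the libraries labelled homozygous. Homozygous replicates 2 to 4 lay below all heterozygous libraries, as 8.78% of all genes showed with 7 libraries, and replicate 1 lay inside their range. On the log2 scale Pax2 differed by -0.73 (SE 0.35, edgeR adjusted p = 0.322) and -1.02 (SE 0.36, adjusted p = 0.167), and the authors' deposited table gives -1.31 with a false discovery rate of 0.00499. The telencephalic interneuron genes, a list of 5 chosen after levels were seen, had positive values for all 5 in both comparisons, with medians of 0.30 and 0.25.

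For each of the 7 genes the 2 genes of most alike level across the 8 libraries were sought among 12529 by the root-mean-square difference of centred log2-CPM, as a description. For Gad1 they were Elmo1 (0.0536) and Cdh4 (0.0571), beside an SD of 0.162 of Gad1 itself, and for Gad2 Fam102b (0.0709) and Gnal (0.0892), beside an SD of 0.261. Slc32a1 (SD 0.149) was nearest to Rcan3 (0.0383) and Ercc6l2 (0.0525), Glrb (SD 0.0818) to Pla2g15 (0.0269) and Dusp3 (0.0332), and Gphn (SD 0.109) to Arrb1 (0.0451) and Wdtc1 (0.0462). The difference grows with a gene's own spread, so values of different members do not rank how well they are matched. Slc6a5, with an SD of 0.658, was nearest to Adamts5 (0.256) and Kcng4 (0.261), and Glra1, with an SD of 0.782, to Cd74 (0.406) and Angptl2 (0.453).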

How the data were processed

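The submitters' processing notes name cutadapt, STAR, RSEM and Picard, and the build mm10; versions and annotation are not given there. Per the file headers, the authors deposited expected counts, TPM and FPKM per gene and library. FPKM were used only for the gene ratios, where FPKM and expected counts were alternatives to TPM. The authors' deposited comparison gives log2 fold changes, p-values and false discovery rates; its other tables cover 6 libraries. Other measures of the deposited sequencing report, such as RNA integrity, were copied.

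Expected counts were rounded, filtered (filterByExpr), scaled by TMM and tested with edgeR 4.0.16 in R 4.3.3 (robust quasi-likelihood fit, Benjamini-Hochberg, threshold 0.05), over all genes; the procedure was tested on simulated data. RSEM divides reads between similar genes. Alternatives were DESeq2 1.42.0, limma-voom (limma 3.58.1), size factors by median of ratios, a filter at 1 CPM or none, a non-robust fit, limma on log2(TPM + 1), which understates changes of low genes, Xist as a covariate, and each library left out. A Hox covariate, the likelihood ratio test and the authors' 6 libraries were added after seeing the data. Exact tests used scipy 1.17.1, figures matplotlib 3.10.9, and positions GENCODE M21 (GRCm38).

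The 7 genes, the lists and the comparison without the library labelled homozygous replicate 1 were chosen with earlier results of these data known. Named were the 7 genes, Arf1, Slc17a6, Chat, Rbfox3, Nefm, and 2 genes most alike each of the 7. Other pathway genes were named that passed or had the 3 smallest p in a comparison. Other list genes are given as values that did not pass, except Cd68, Tmem119, Dhh, Col3a1, Nefl and Nefh, which passed with 7 libraries. Pax2, Dhh, Col3a1, Nefl, Nefh, Tubb3, Slc17a7, Slc17a8, the astrocyte and microglia genes and the forebrain, Hox and Dlx1 values were chosen after values were seen. Each library is a different animal by its label.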

Additional observations from a re-analysis of the deposited data

Results flagged for a closer look

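Among 16 named genes in 2 groups of 4 libraries each, 3 of 32 sets of values held 1 library far from the other 3, where chance gives about 1 in 20. Glra1 was at 12.8 CPM in heterozygous replicate 4, with a gap of 0.842 of the whole range of its group, above Dixon's critical value for 4 samples. The library labelled homozygous replicate 1 had Arf1 at 307 CPM, above the other 3, with a gap of 0.939 of the range. Chat was at 3.47 CPM in heterozygous replicate 1, below the other 3, with a gap of 0.923 of the range.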

How the results depend on the processing

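No paired analysis was possible because the labels give every animal its own number and tie no animal to one of the other group. Equal replicate numbers in the 2 groups do not name a pair. No member was called under any alternative with 8 libraries; with 7, limma on log2(TPM + 1) called 1 (Glrb). Slc6a5, Glra1, Glrb and Gphn stayed negative in all 18 alternatives of each comparison. Other pathway genes called were 3 by DESeq2 and 1 by the likelihood ratio test with 8 libraries. With 7 they were 1 without a filter, 4 by DESeq2, 9 on log2 TPM, 2 by the likelihood ratio test, 4 by that test on the authors' 6 libraries, and 0 to 2 with each library left out. The 9 on log2 TPM were all negative except Gabrr2, on a scale whose median over all genes was -0.17. DESeq2's shares were near those of all genes (4.69% against 4.11% with 8 libraries, 6.25% against 6.54% with 7). For the other settings the share of all genes is not given here, so their counts do not set the pathway apart. Over all genes the alternatives called 0 to 270 higher and 0 to 409 lower with 8 libraries, and 3 to 431 and 3 to 2065 with 7.

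Signs that turned were of values near 0. On log2(TPM + 1) with 8 libraries they were Gad1 -0.041, Gad2 -0.031, Slc32a1 -0.14 and Rbfox3 -0.16, and with 7 Gad1 -0.12, Gad2 -0.18 and Rbfox3 -0.17. The Xist covariate gave Gad2 -0.0099 with 7, and the Hox covariate Rbfox3 -0.070 with 8 and -0.076 with 7 and Slc32a1 0.0049 with 7. With each library left out, 8 libraries gave ranges of -0.036 to 0.12 for Slc32a1, -0.056 to 0.077 for Rbfox3, and log2 ratios of -0.095 to 0.065 for Gad1 to Gad2 and -0.096 to 0.0073 for Glrb to Gphn. The 7 libraries gave -0.12 to 0.14 for Gad2, -0.12 to 0.048 for Slc32a1, -0.049 to 0.14 for Rbfox3, -0.027 to 0.15 for Gad1 to Gad2 and -0.11 to 0.048 for Glrb to Gphn. The causes were not tested. Among genes given per library, counts were lowest for Gabrr2, Pax2 and Glra1, with 21, 25 and 56 in their lowest libraries, which limits their precision.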
